A study of Mus musculus with 23 samples.

Results

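Genes of the ubiquitin and proteasome pathway were followed in the prefrontal cortex of mice that had received tumour cells under the skin. The members were all genes whose symbol in the array annotation names a proteasome subunit, activator or assembly chaperone (Psma to Psmg), a ubiquitin-activating enzyme (Uba), a ubiquitin-conjugating enzyme (Ube2), a ubiquitin-specific protease (Usp) or an F-box protein (Fbxl, Fbxo, Fbxw). The symbol alone chose them, and no measured value entered. This gave 93 genes with 96 oligonucleotide spots (oligos) out of 8726 genes with 8997 oligos. Fbxl20, Fbxo4 and Psmg3 had 2 oligos each. By role, the oligos comprised 26 of the proteasome, 1 of an E1 enzyme, 16 with a Ube2 symbol (called E2 enzymes here, although Ube2cbp is an E2-binding ligase), 21 of deubiquitinases and 31 of F-box proteins. The remaining oligo belongs to Psmc3ip, whose product acts in meiotic recombination and is no proteasome subunit.

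The arrays were printed in house and compared 2 RNAs on each slide, one carrying the dye Cy3 and the other Cy5. Female Balb/c mice aged 8 weeks were injected subcutaneously with 100000 4T-1 cells (a murine mammary carcinoma line) suspended in 100 µl phosphate-buffered saline (PBS), or with PBS alone. The prefrontal cortex was taken 18, 72 or 192 h later. The report uses the 14 arrays made from total RNA, which form 7 replicates: replicates 4, 5 and 6 for 18 h, and replicates 3 and 4 for both 72 h and 192 h. Each replicate was measured on 2 arrays with the dyes exchanged (a dye swap), and the mean of both arrays is the replicate's value. The labels name no genetic modification, and the PBS controls of an array were taken at the same time after injection as the tumour group. The sources used here do not say whether a replicate stands for 1 mouse or several, so p-values cover only the spread between these replicates, part of which may be technical. In whole tissue, fewer cells of a type and less RNA per cell cannot be told apart.

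In this pathway an E1 enzyme activates ubiquitin, an E2 enzyme carries it and an E3 ligase attaches it to a substrate protein. F-box proteins are the substrate-binding subunits of the SCF ligases, and deubiquitinases remove or trim the ubiquitin chains. Marked proteins are unfolded by the 19S regulatory particle, which holds a ring of ATPases, and are cut inside the 20S core, a barrel of alpha and beta rings. In neurons the pathway takes part in the turnover of synaptic proteins. Interferon replaces the catalytic beta subunits by those of the immunoproteasome, whose genes Psmb8, Psmb9 and Psmb10 were not among the oligos, nor were the activator genes Psme1 and Psme2.

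Ratios are log2 of tumour over PBS, so positive values stand for more transcript in the tumour group. The headers leave the dye of channel A unnamed, so this direction is likely, not settled. It was read from the labelled dyes together with the authors' own log ratios, and if the channels were the other way round every sign below would turn. Replicates held a value for 2329 to 6705 oligos, and for 30 to 78 of the 96 members. The 2 arrays of a swap, once turned to the same direction, had a correlation below 0 across all oligos in 6 of 7 replicates (median r -0.27, from -0.59 to 0.16), and across the members also in 6 of 7 (median r -0.35, from -0.53 to 0.20). Both arrays had the same sign in 186 of 415 values of members (44.8%), beside 46.6% over all oligos. Whether both arrays of each swap were hybridised in opposite orientation, as the labels say, was not tested; where they were not, turning 1 array would mix the directions within the mean, and this applies to every replicate value below. The 192 h replicate 3 was the only one on a second printing of the array, which held 2 of the 14 arrays. The 8 neuronal markers on the array had a median brightness percentile of 64.5, from 29.3 for Syt1 to 93.0 for Snap25, and 4 oligodendrocyte markers one of 65.1, from 43.3 for Olig2 to 84.9 for Mal. No oligo stood for the 3 blood markers looked for.

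At none of the 3 times did a member pass an adjusted p of 0.05 (limma with Benjamini-Hochberg adjustment over all oligos tested). The share of all oligos called was 0% at 18 h (0 of 3437), 0% at 72 h (0 of 4228) and 0% at 192 h (0 of 2763). Centring each array on its median in place of loess called 8 oligos at 18 h and 1 at 192 h, and leaving out 192 h replicate 3 called 19 of 6705 oligos there, with 0 members among any of them. At an unadjusted p under 0.05 the loess values of all replicates gave 6.17% of all oligos at 18 h, 2.6% at 72 h and 3.4% at 192 h. Of the members, 6 of 43 were below that p at 18 h (2 higher and 4 lower), 2 of 60 at 72 h (both higher) and 1 of 49 at 192 h (higher). The shares of members at 72 h and 192 h thus lay at or near the background; at 18 h the share of members was above it, and no test was made of that difference. The median log2 ratio of the members was -0.049 at 18 h, -0.041 at 72 h and -0.012 at 192 h, beside -0.0095, -0.016 and 0.017 over all oligos. The 95% interval of a member's ratio reached 0.32 to each side at the median at each of the 3 times.

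**Figure D1:**
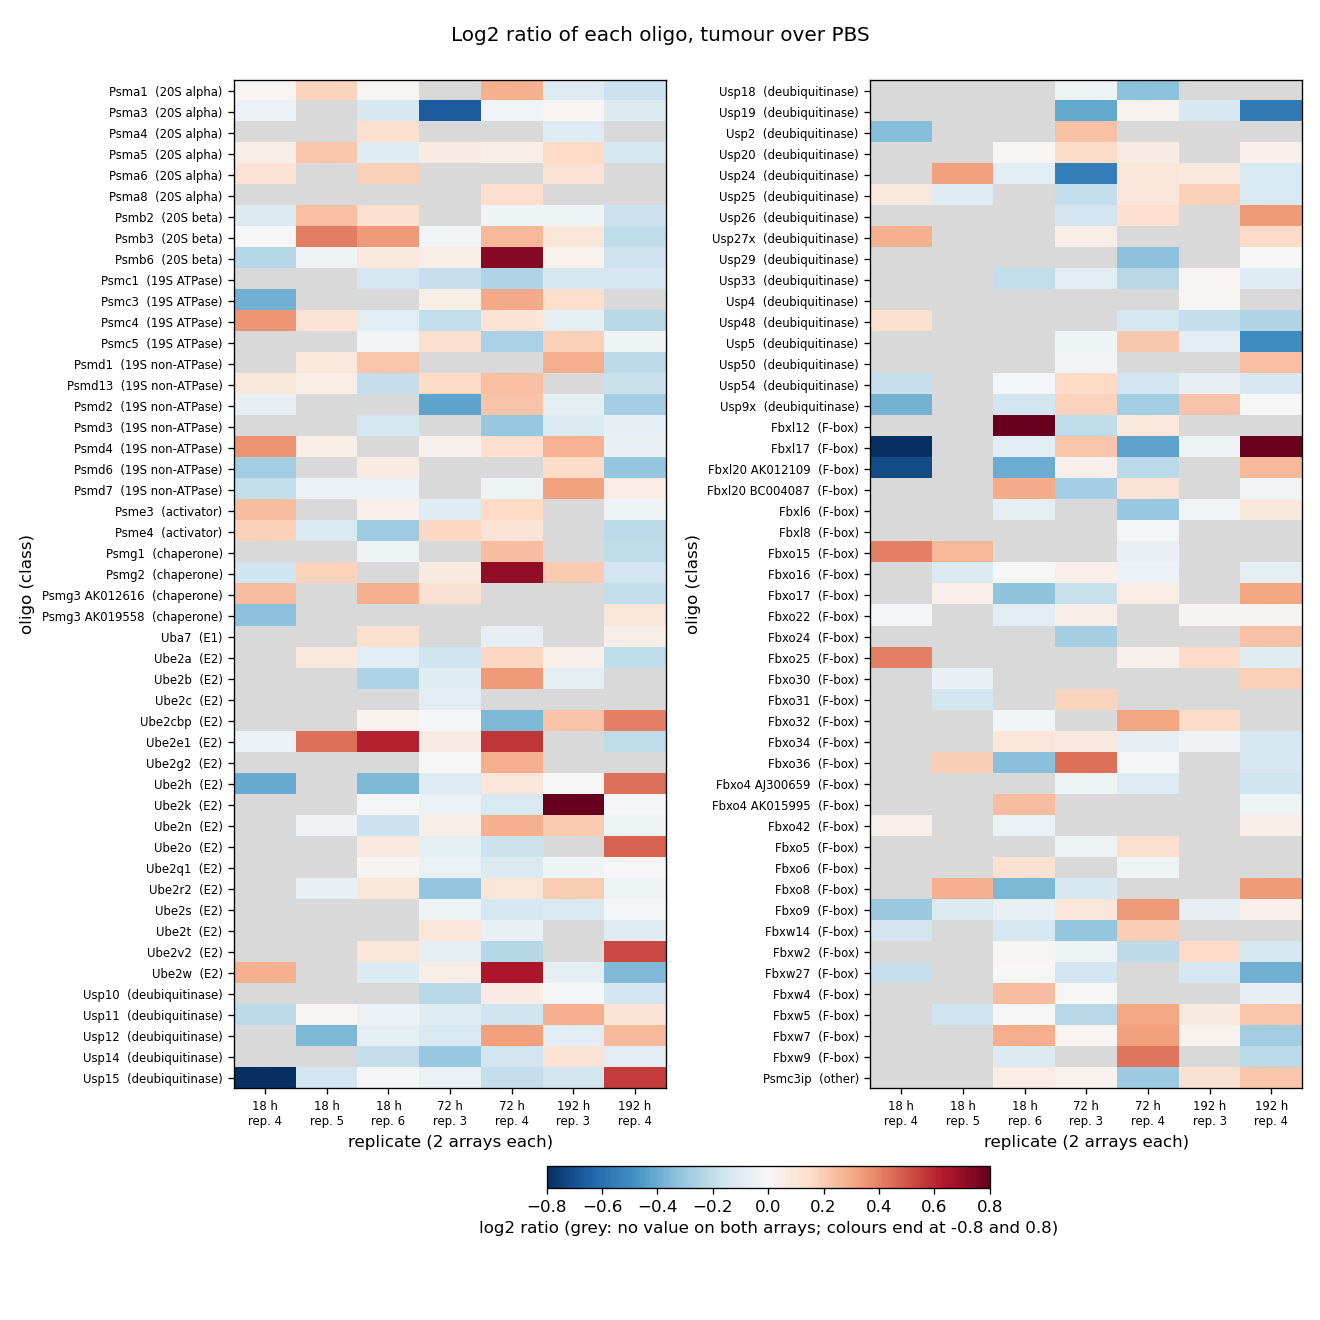
Log2 ratio of tumour over PBS for each of the 96 oligos (rows, with class) in each of the 7 replicates (columns); red is higher and blue lower after tumour cells, grey has no value on both arrays of the swap. Most values are pale, and the lowest is Fbxl17 at -1.30 in 18 h replicate 4.

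The proteasome oligos leaned slightly to higher ratios at 18 h and 72 h and to lower ones at 192 h. At 18 h 11 of 17 tested oligos (at least 2 replicate values) lay above 0 with a median of 0.068, at 72 h 9 of 14 with a median of 0.072, and at 192 h 6 of 16 with a median of -0.062. Among all oligos 47.5%, 45.6% and 55.3% lay above 0 at these times. In some swaps the proteasome medians of the arrays with tumour RNA in Cy5 and Cy3 had opposite signs. They were 0.10 and -0.11 in 18 h replicate 6, 0.31 and -0.21 in 72 h replicate 3, and -0.057 and 0.22 in 192 h replicate 3. In the other replicates they shared a sign. Both arrays had the same sign for 3 of 15 proteasome oligos in 72 h replicate 3 (all oligos 39.8%) and 6 of 19 in 192 h replicate 3 (25.5%). Without 18 h replicate 5 the 18 h median was -0.0062, with the authors' log ratios it was 0.00375, and with 1 array of a swap taken as enough the 72 h median was -0.024. With median centring the size of 14 of the 19 named member ratios at 18 h moved by over 1.5 times, with Psmb3 going from 0.25 to 0.068 and Psmd4 from 0.20 to 0.054. Not one of the proteasome oligos passed the adjusted test, and the smallest adjusted p was 0.82 at 18 h, 0.997 at 72 h and 1.00 at 192 h. Every replicate lay above 0 for 7 of 17 oligos at 18 h and 7 of 14 at 72 h, where 18.9% and 21.4% of all oligos did so. At 192 h every replicate lay below 0 for 6 of 16 proteasome oligos, beside 22.3% of all oligos, and above 0 for 1 of 16, beside 26.5%.

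The 2 replicates at 192 h stood apart. In replicate 4, 20 of 22 proteasome oligos lay below 0 with a median of -0.17, while 51.1% of all oligos lay below 0. Markers of cell types also lay off 0 in that replicate: 5 of 6 microglial markers lay below 0 (median -0.28, from -0.38 for C1qa, with Itgam at 0.41). Of the neuronal markers 4 of 6 lay above 0 (median 0.18), from -0.27 for Syt1 to 0.74 for Camk2a. In replicate 3, 3 of 6 neuronal markers lay above 0 (median 0.011) and 1 of 2 microglial markers below it. Of the neuronal and microglial markers with a value in both replicates, some shared a sign in replicates 3 and 4 and others did not. Gad2 read 0.49 and 0.70, Stmn2 -0.14 and -0.093, and Aif1 -0.30 and -0.27. Opposite signs were given by Camk2a (-0.096 and 0.74), Nefl (-0.15 and 0.052) and P2ry12 (0.12 and -0.30). The part of these markers in the proteasome values was not tested. Of the proteasome oligos in replicate 3, 7 of 19 lay below 0 and the median was 0.097, with 43.2% of all oligos below 0. The 6 core particle oligos measured in replicate 4 were all below 0 and close to each other, at -0.11 for Psma3, -0.13 for Psma5, -0.17 for Psmb6, -0.17 for Psmb2, -0.17 for Psma1 and -0.20 for Psmb3. Of the 19S particle, 9 of 10 oligos lay below 0 in that replicate, and Psmd7 at 0.058 was the exception. Both activators and 3 of 4 assembly chaperone oligos were below 0 as well. The other exception of the 22 was 1 of the 2 oligos for Psmg3 (0.098), while its second oligo gave -0.20.

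The median below 0 in 192 h replicate 4 was seen on both of its arrays, though not equally. With tumour RNA in Cy5 the median of the proteasome oligos was -0.064, with 14 of 22 below 0, and with tumour RNA in Cy3 it was -0.28, with 18 of 22 below 0. On both arrays at once 10 of 22 lay below 0 and 0 of 22 above it. Of all oligos, 25.8% lay below 0 and 27.5% above 0 on both. Each proteasome oligo above 0 on either array was thus below 0 on the other. The arrays shared a sign for 45.5% of the proteasome oligos, less often than for all oligos (53.3%), and that difference was not tested. In the brightest 25% of the oligos of this replicate, 57.5% lay below 0 (median -0.036), and of the 13 proteasome oligos among them 12 did (median -0.15). The members outside the proteasome were below 0 in 32 of 56 cases in this replicate, with a median of -0.014. Since replicate 3 was on the other printing, the difference between the 2 replicates and a difference between printings cannot be told apart. With 2 replicates the contrast has no test of its own, and at 192 h the median of the proteasome oligos had a spread of 0.19 (SD, n = 2) between replicates.

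**Figure D2:**
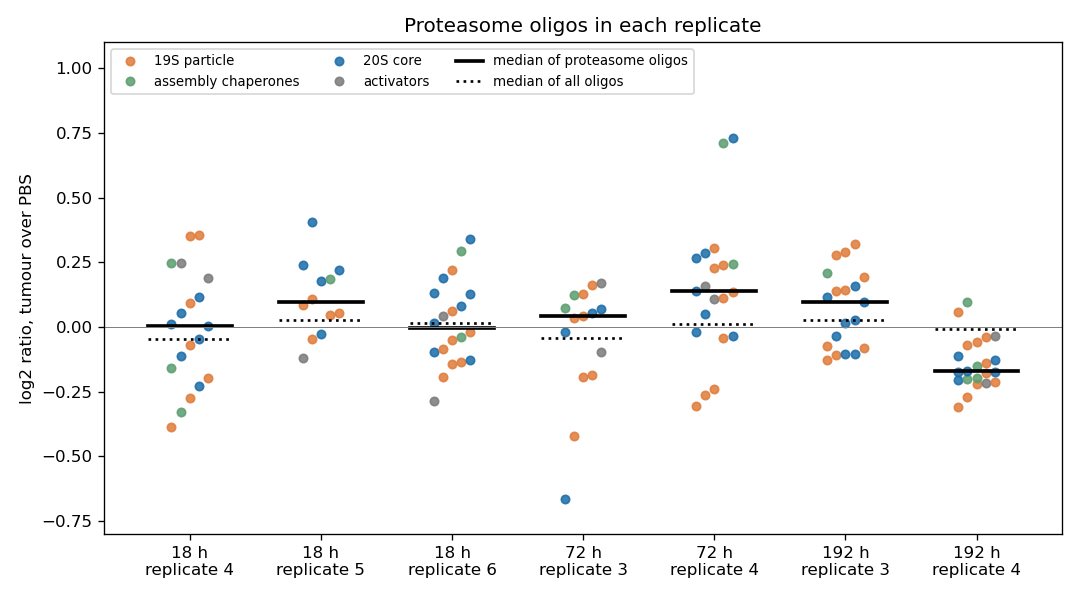
Log2 ratio of tumour over PBS (vertical axis) of each proteasome oligo in each replicate (horizontal axis), coloured by part of the complex; solid lines are medians of these oligos and dotted lines medians of all oligos. In 192 h replicate 4, 20 of 22 points lie below 0, and in 72 h replicate 4 the median is 0.14 with 14 of 20 points above 0.

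The core and regulatory particle subunits Psma5, Psmb3, Psmb6 and Psmc4 gave a value in every replicate. Psma5, an alpha ring subunit, stood at 0.055, 0.22 and -0.096 at 18 h, at 0.068 with 0.052 at 72 h, then at 0.16 with -0.13 at 192 h, in order of replicate number. At 18 h as at 192 h its replicates lay on both sides of 0, and its fitted ratios of 0.059 ± 0.12 (SE, n = 3), 0.060 ± 0.14 (n = 2) and 0.016 ± 0.14 (n = 2) were all smaller than their errors. Psmb3, a beta ring subunit without catalytic activity, gave 0.0045, 0.41 and 0.34 at 18 h, -0.020 and 0.27 at 72 h. In the 192 h replicates it gave 0.097 and -0.20. All 3 replicates lay above 0 at 18 h, where the ratio was 0.25 ± 0.12 (SE, n = 3; limma adjusted p = 0.82), and the replicates of the later times fell on both sides of 0.

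Psmb6 encodes the catalytic beta subunit with caspase-like activity, which the immunoproteasome subunit of Psmb9 replaces. Its replicates read -0.23, -0.029 and 0.082 at 18 h, 0.056 and 0.73 at 72 h. The 192 h replicates read 0.027 and -0.17. The 72 h mean of 0.39 ± 0.16 (SE, n = 2; limma adjusted p = 0.997) was carried by replicate 4, and within it by the array with tumour RNA in Cy5 at 1.39, while the other array gave 0.074. Psmc4, an ATPase of the 19S ring, read 0.35, 0.11 and -0.086 at 18 h, -0.19 and 0.11 at 72 h. Later, at 192 h, it read -0.074 and -0.22. Both replicates were below 0 at 192 h, where the ratio was -0.15 ± 0.15 (SE, n = 2; limma adjusted p = 1.00).

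**Figure D3:**
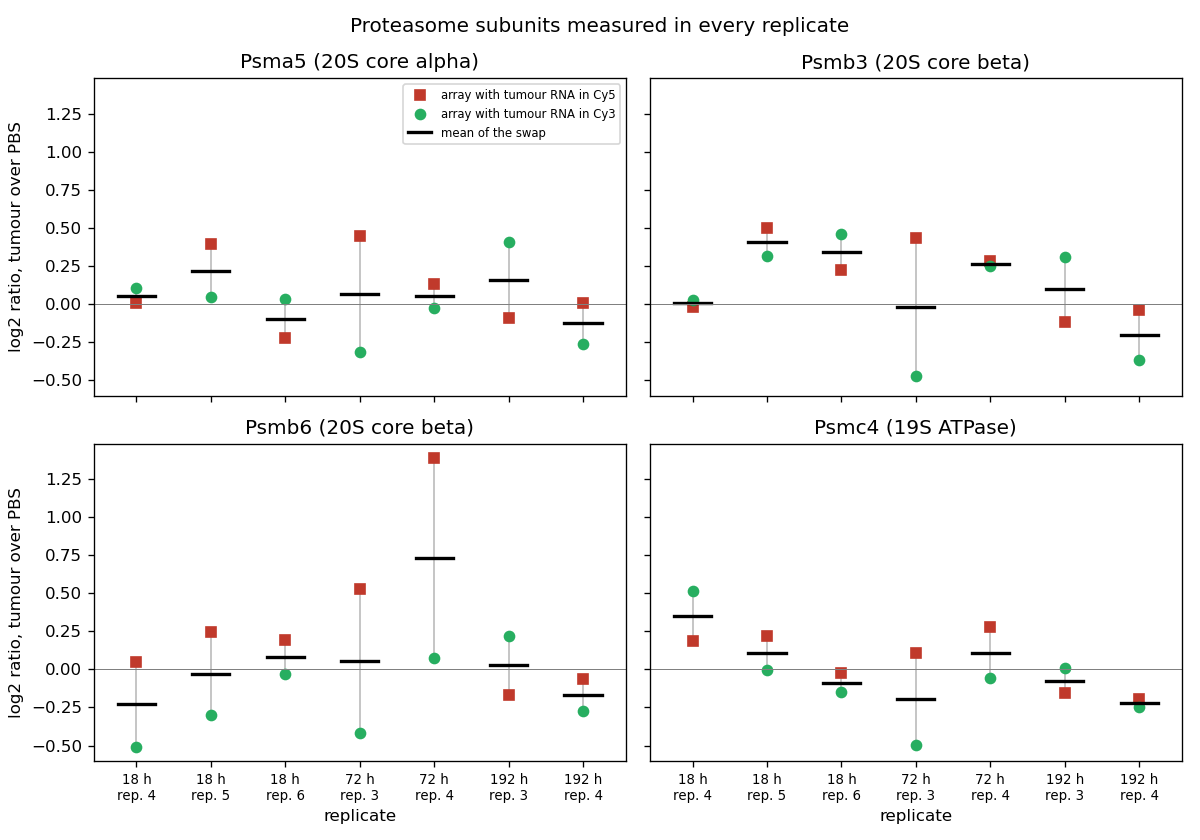
Log2 ratio of tumour over PBS of the subunits with a value in all 7 replicates, for each of the 2 arrays of a swap (red squares, tumour RNA in Cy5; green circles, tumour RNA in Cy3) and their mean (black bar). The gap between square and circle often exceeds the distance of the mean from 0, as for Psmb6 in 72 h replicate 4 (1.39 and 0.074).

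The promoters of Psma5, Psmb3, Psmb6 and Psmc4 are shown because these subunits had a value in all 7 replicates. A link between the sequences and the ratios was not tested. The windows are the 300 bases around the RefSeq start in GRCm38.p6, most of them upstream of it, and 69 of the 93 member genes had an entry, 19 of them of the proteasome. Capitals mark matches on either strand to TGACNNNGC (the core of the antioxidant response element, which the factors encoded by Nfe2l1 and Nfe2l2 bind), CCGGAAGT (an ETS family site) or CCAAT (the CCAAT box).
Psma5, chr3:108256676-108256975, plus strand: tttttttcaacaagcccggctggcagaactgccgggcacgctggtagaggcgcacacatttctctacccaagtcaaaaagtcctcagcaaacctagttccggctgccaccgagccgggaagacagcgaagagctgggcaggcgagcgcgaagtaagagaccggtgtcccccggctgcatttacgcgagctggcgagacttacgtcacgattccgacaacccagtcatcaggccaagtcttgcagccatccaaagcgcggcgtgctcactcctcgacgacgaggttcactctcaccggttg
Psmb3, chr11:97703184-97703483, plus strand: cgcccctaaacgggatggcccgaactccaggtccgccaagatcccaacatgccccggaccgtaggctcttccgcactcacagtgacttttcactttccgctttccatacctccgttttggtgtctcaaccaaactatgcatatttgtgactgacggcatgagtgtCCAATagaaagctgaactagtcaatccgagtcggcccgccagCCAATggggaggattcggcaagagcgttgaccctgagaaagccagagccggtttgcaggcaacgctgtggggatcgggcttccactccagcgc
Psmb6, chr11:70525107-70525406, plus strand: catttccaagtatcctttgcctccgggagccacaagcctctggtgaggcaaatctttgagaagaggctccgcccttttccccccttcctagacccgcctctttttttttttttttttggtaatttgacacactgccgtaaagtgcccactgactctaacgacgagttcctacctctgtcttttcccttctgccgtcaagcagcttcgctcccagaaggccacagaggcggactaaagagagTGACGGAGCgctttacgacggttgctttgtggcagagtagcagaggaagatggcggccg
Psmc4, chr7:28050043-28050342, minus strand: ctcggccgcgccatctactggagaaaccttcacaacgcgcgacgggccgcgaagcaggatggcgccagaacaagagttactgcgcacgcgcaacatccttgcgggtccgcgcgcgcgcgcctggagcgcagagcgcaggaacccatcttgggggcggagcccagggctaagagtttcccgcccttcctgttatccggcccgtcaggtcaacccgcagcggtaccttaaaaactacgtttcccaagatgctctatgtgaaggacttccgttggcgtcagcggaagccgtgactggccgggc

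Psmb6 held 1 match to TGACNNNGC near the start and Psmb3 held 2 CCAAT boxes, while the windows of Psma5 and Psmc4 held none of the 3 letter strings. TGACNNNGC was found in 2 of 19 proteasome promoters (10.5%, Psmb6 and Psme4), beside 12.5% of all 27025 promoters. CCGGAAGT was found in 6 of 19 (31.6%, Psmc1, Psmd13, Psmd6, Psme3, Psme4 and Psmg3), beside 4.0% of all promoters, and in 12 of the 69 member promoters (17.4%). CCAAT stood in 7 of 19 (36.8%) beside 37.9%. Of 2 further strings searched, TGACTCAGC, which is a form of TGACNNNGC, was in 0 of 19 beside 0.426%, and GTGAC was in 13 of 19 (68.4%) beside 45.8%. The strings were chosen after a first look at the promoters, and a match is a description of letters, not a site.

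Among the other alpha subunits, Psma1 lay above 0 in all 3 replicates at 18 h (0.010, 0.18 and 0.017) and below 0 in both at 192 h (-0.10 and -0.17). Psma3 was the member of smallest p among those with a negative ratio at 72 h, at -0.66 in replicate 3 and -0.021 in replicate 4 (mean -0.34 ± 0.16, SE, n = 2; limma adjusted p = 0.997). One replicate thus set the size. Psma6 read 0.12 and 0.19 in the 2 replicates measured at 18 h. Psma4 had 2 replicate values in all, 0.13 at 18 h and -0.10 at 192 h, and Psma8, whose product replaces an alpha subunit in the testis, had 1, at 0.14. The beta subunit Psmb2 was on both sides of 0 at 18 h and below 0 in both replicates at 192 h (-0.033 and -0.17).

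Of the 19S ATPases, Psmc1 was below 0 in every replicate that measured it: -0.13 at 18 h, -0.19 with -0.24 at 72 h, then -0.13 with -0.14 at 192 h. These 5 values were close to each other, and the fitted ratios were -0.21 ± 0.14 at 72 h and -0.13 ± 0.14 at 192 h (SE, n = 2 each; limma adjusted p = 0.997 and 1.00). Psmc5 read 0.13 and -0.26 at 72 h and 0.19 and -0.037 at 192 h, so its replicates disagreed in sign at both times. Psmc3 stood at -0.39 in the 1 replicate with a value at 18 h, and at 0.044 and 0.31 at 72 h.

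Among the non-ATPase subunits of the 19S particle, Psmd4, a ubiquitin receptor, lay above 0 in 5 of 6 replicates. It read 0.36 and 0.048 at 18 h, 0.033 with 0.14 at 72 h, then 0.28 with -0.058 at 192 h, and its ratio at 18 h was 0.20 ± 0.15 (SE, n = 2; limma adjusted p = 0.90). Psmd7, a scaffold partner of the lid's deubiquitinase, was below 0 in all 3 replicates at 18 h (-0.20, -0.048 and -0.048) and above 0 in both at 192 h (0.32 and 0.058). Psmd13, a lid subunit, read 0.16 and 0.24 at 72 h and -0.18 in the 1 replicate measured at 192 h. Psmd2, a base subunit that docks ubiquitin receptors, gave -0.42 and 0.23 at 72 h and -0.079 and -0.27 at 192 h. Psmd1, Psmd3 and Psmd6 had 4 replicate values each, between -0.31 and 0.29.

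The activators gave no consistent sign. Psme4, whose product is the activator PA200, read 0.19, -0.12 and -0.28 at 18 h, 0.17 and 0.11 at 72 h and -0.22 in 192 h replicate 4. Psme3, the nuclear activator PA28 gamma, read 0.25 and 0.043 at 18 h, -0.095 and 0.16 at 72 h and -0.036 at 192 h. Of the assembly chaperones, Psmg2 stood at 0.073 and 0.71 at 72 h (mean 0.39 ± 0.17, SE, n = 2; limma adjusted p = 0.997), where the array with tumour RNA in Cy5 of replicate 4 gave 1.41 and the other 0.0097. Psmg2 and Psmb6 thus had the same shape at 72 h, with 1 array carrying the mean. The 2 oligos of Psmg3 had opposite signs in both replicates that measured both, 0.25 and -0.33 in 18 h replicate 4 and -0.20 and 0.098 in 192 h replicate 4.

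Uba7 was the only E1 gene, and its product activates the ubiquitin-like protein ISG15, which interferon induces. It had a value in 3 replicates, at 0.13 (18 h), -0.066 (72 h) and 0.044 (192 h), at a mean brightness percentile of 20.3. The other interferon-induced genes were also dim. Of 15 listed genes 6 were on the array, at a median brightness percentile of 34.9, and the number tested was 2 (18 h), 1 (72 h) and 0 (192 h). The interferon-induced deubiquitinase Usp18, which removes ISG15, read -0.038 and -0.33 at 72 h (mean -0.18 ± 0.15, SE, n = 2; limma adjusted p = 0.997) and had no value at the other times. Isg15 itself read -0.048, 0.26 and -0.16 at 18 h. These values fell on both sides of 0.

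The E2 enzymes had medians of 0.0092 over 6 oligos at 18 h, -0.0055 over 15 at 72 h and 0.082 over 9 at 192 h, beside 0.017 over all oligos at 192 h. Without Ube2cbp, which is no E2, the 192 h median was 0.031 over 8 oligos, of which 4 lay above 0. Ube2e1 had the smallest p among members with a positive ratio at 18 h, with replicates at -0.044, 0.44 and 0.62 (mean 0.34 ± 0.14, SE, n = 3; limma adjusted p = 0.79). With median centring in place of loess the mean was 0.0027. Its arrays disagreed widely: in replicate 4 the array with tumour RNA in Cy5 gave -3.04 and the one with tumour RNA in Cy3 gave 2.95, and in replicate 6 they gave -0.80 and 2.03. In every swap but that of 192 h replicate 4 the Cy3 array of Ube2e1 was positive and the Cy5 array negative, wherever both had a value. Its brightness percentile of 87.2 was the highest of the E2 enzymes. Ube2n, which builds the chains used in signalling, read -0.031 and -0.17 at 18 h, 0.049 with 0.29 at 72 h and 0.21 with -0.042 at 192 h.

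Other E2 values were also set by single replicates or arrays. Ube2k, an enzyme known to bind the huntingtin protein, stood at 0.80 and -0.017 at 192 h (mean 0.39 ± 0.18, SE, n = 2; limma adjusted p = 1.00), and within replicate 3 the arrays gave 0.16 and 1.43. Ube2h, a partner of the CTLH ligase, lay below 0 at 18 h in both measured replicates, -0.40 and -0.36 (mean -0.38 ± 0.15, SE, n = 2; limma adjusted p = 0.77). At 192 h Ube2h read -0.00010 and 0.44, and the difference of 192 h from 18 h was 0.60 ± 0.21 (SE; limma adjusted p = 0.66). Ube2w, which places ubiquitin on protein amino termini, read 0.051 and 0.65 at 72 h and -0.081 and -0.35 at 192 h. In 72 h replicate 4 its array with tumour RNA in Cy5 gave 1.30 and the other -0.0006, so 1 array carried that value. Ube2cbp, which is an E2-binding protein with ligase activity and no E2, lay the other way from Ube2w, at -0.015 and -0.36 at 72 h and at 0.23 and 0.40 at 192 h. The other 10 E2 genes (Ube2a, Ube2b, Ube2c, Ube2g2, Ube2o, Ube2q1, Ube2r2, Ube2s, Ube2t and Ube2v2) ran from -0.31 for Ube2r2 to 0.53 for Ube2v2, an inactive variant that pairs with the Ube2n product.

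**Figure D4:**
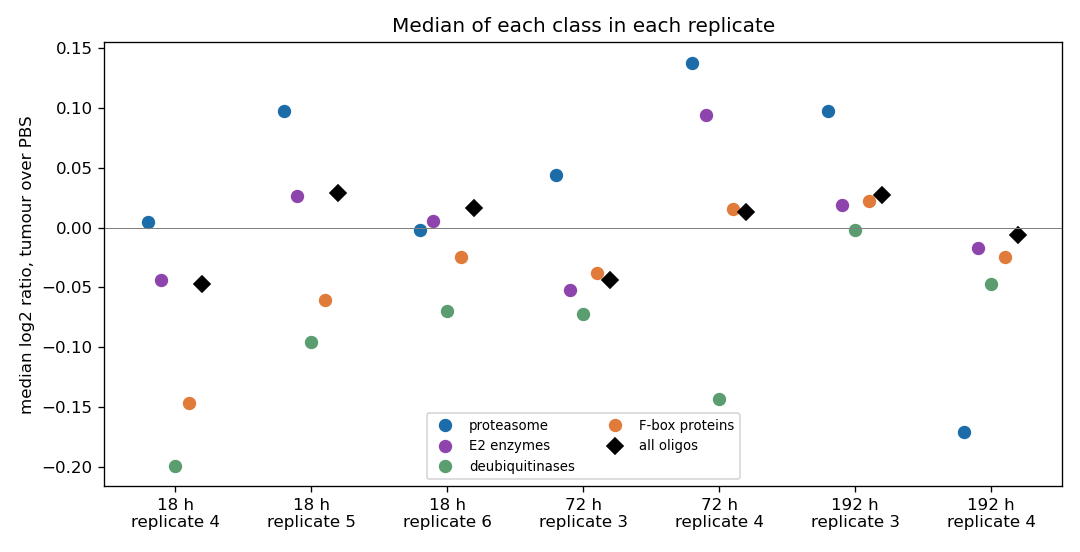
Median log2 ratio of tumour over PBS (vertical axis) of 4 classes and of all oligos (black diamonds) in each replicate (horizontal axis). The proteasome median is 0.14 in 72 h replicate 4 and -0.17 in 192 h replicate 4, and the deubiquitinase median is below 0 in all 7 replicates. These are means over the swap, and on single arrays the deubiquitinase median was above 0 in some replicates.

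The deubiquitinases lay below 0 more often than above it. At 18 h 6 of 7 tested oligos lay below 0 with a median of -0.097, at 72 h 11 of 15 with a median of -0.076, and at 192 h 7 of 13 with a median of -0.017. Above 0 lay 47.5%, 45.6% and 55.3% of all oligos at these times. The class median was below 0 in each of the 7 replicates, from -0.20 in 18 h replicate 4 to -0.0018 in 192 h replicate 3, over 5 to 18 oligos. It was also below the median of all oligos in each, which ran from -0.047 to 0.029. The single arrays of a swap did not all share this sign. With tumour RNA in Cy5 the class median was 0.079 in 18 h replicate 4. With tumour RNA in Cy3 it was 0.0068 in 72 h replicate 3, 0.17 in 192 h replicate 3 and 0.090 in 192 h replicate 4. In each of these replicates the other array had a median below 0. Averaged over the 3 times, 7 of 7 deubiquitinases tested lay below 0 with a median of -0.040, where 54.8% of all oligos lay above it. Their ratios were small, from -0.090 to -0.0030, and the median half-width of their 95% intervals was 0.19. In that average 0% of 1231 oligos passed the adjusted test and 2.03% had an unadjusted p under 0.05, with no member among them.

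Usp15, which acts on ubiquitin chains in TGF-beta signalling, had all 7 values: -0.90, -0.15 and -0.013 at 18 h, -0.053 with -0.19 at 72 h, then -0.14 with 0.56 at 192 h. Of these 6 lay below 0, and the 18 h mean of -0.36 ± 0.16 (SE, n = 3; limma adjusted p = 0.80) rested mainly on replicate 4. Usp11, a nuclear deubiquitinase, was below 0 in both replicates at 72 h (-0.097 and -0.16) and above it in both at 192 h (0.29 and 0.11). Usp9x, an X-linked deubiquitinase of neuronal development, read -0.38 and -0.15 at 18 h. At later times its replicates disagreed, with 0.19 and -0.27 at 72 h and 0.23 and -0.0047 at 192 h.

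The deubiquitinases of the proteasome and of free chains were also measured in part. Usp14, which sits on the 19S particle and trims chains there, was below 0 in 4 of 5 replicates, at -0.19 at 18 h, -0.30 with -0.16 at 72 h, then 0.11 with -0.088 at 192 h. Its ratio at 72 h was -0.23 ± 0.15 (SE, n = 2; limma adjusted p = 0.997). Usp5, which takes apart free ubiquitin chains, read -0.087 and -0.50 at 192 h (mean -0.29 ± 0.16, SE, n = 2; limma adjusted p = 1.00). Usp19, an enzyme of the endoplasmic reticulum, read -0.13 and -0.57 there, and Usp48 read -0.19 and -0.24. Usp24 gave -0.55 and 0.097 at 72 h, so replicate 3 alone set its mean of -0.22 ± 0.17. The other deubiquitinases had values from -0.36 to 0.34, and Usp4 had a single one.

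At 18 h 12 of 13 tested F-box oligos lay below 0 with a median of -0.083, but their single replicates were less one-sided. Below 0 lay 6 of 9 in replicate 4, 5 of 9 in replicate 5 and 14 of 23 in replicate 6, where 56.2%, 44.4% and 46.6% of all oligos did. Every replicate was below 0 for 7 of the 13, beside 21.8% of all oligos, and 2 had an unadjusted p under 0.05 toward lower values and 1 toward higher. In the brightest 25% of replicate 4, 77.0% of all oligos lay below 0 with a median of -0.21, and the part of this in the F-box count was not tested. At 72 h 9 of 15 F-box oligos were below 0 (median -0.057), with 2 of 15 below 0 in every replicate beside 27.2% of all oligos. At 192 h 4 of 10 were below 0 (median 0.017). Of all oligos tested, 47.5%, 45.6% and 55.3% had a ratio above 0 at 18, 72 and 192 h.

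Fbxl20 and Fbxl17 had the smallest p among the ratios below 0 at 18 h. Fbxl20, a neuronal F-box protein that binds the presynaptic protein RIM1, had 2 oligos, and the brighter one read -0.72 and -0.40 at 18 h (mean -0.56 ± 0.15, SE, n = 2; limma adjusted p = 0.75; -0.27 with median centring). Its unadjusted p of 0.0026 was the smallest of any member. The same oligo read 0.042 and -0.22 at 72 h and 0.27 in 192 h replicate 4. The second Fbxl20 oligo stood at 0.29 in the 1 replicate that measured it at 18 h, opposite in sign to the first in that replicate (-0.40). The 2 oligos of this gene therefore did not give the same direction.

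Fbxl17, an F-box protein that acts in the quality control of protein dimers, read -1.30 and -0.088 at 18 h, 0.22 with -0.42 at 72 h, then -0.033 with 0.79 at 192 h. Both extremes came from replicates with the number 4, and at each time the 2 replicates were far apart. The mean was -0.70 ± 0.25 at 18 h and 0.38 ± 0.25 at 192 h (SE, n = 2 each; limma adjusted p = 0.75 and 1.00). Fbxo9, which had all 7 values, was below 0 in the 3 replicates at 18 h (-0.29, -0.12 and -0.061) and above it in both at 72 h (0.097 and 0.34). At 192 h it was near 0, at -0.066 and 0.042.

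Fbxo15, a gene known from embryonic stem cells, lay above 0 at 18 h, at 0.40 and 0.27 (mean 0.34 ± 0.15, SE, n = 2; limma adjusted p = 0.80). Fbxw27 read -0.13 and -0.39 at 192 h and lay below 0 in each of the 5 replicates that measured it. Fbxo32, the muscle atrophy ligase subunit atrogin-1, read -0.025 at 18 h, 0.32 at 72 h and 0.15 at 192 h, 1 replicate each. Fbxw7, which marks cyclin E and MYC for degradation, read 0.29 at 18 h, 0.018 with 0.33 at 72 h, then 0.029 with -0.28 at 192 h. The largest value among the F-box oligos was 1.00 for Fbxl12 in 18 h replicate 6, from a spot at a mean brightness percentile of 20.7, and its 72 h replicates were -0.20 and 0.085. The other 22 F-box oligos had 1 to 6 replicate values each, from -0.36 for Fbxo8 to 0.44 for Fbxo36. Psmc3ip, the member outside the classes, gave -0.13 ± 0.15 at 72 h and 0.17 ± 0.15 at 192 h (SE, n = 2 each; limma adjusted p = 0.997 and 1.00).

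Differences between the times were examined in the same fit. The background was 0% of 2061 oligos for 72 h minus 18 h, 0% of 1609 for 192 h minus 18 h and 0% of 1932 for 192 h minus 72 h at an adjusted p under 0.05. At an unadjusted p it was 3.64%, 6.96% and 3.21%, and 2 of 31, 3 of 29 and 2 of 38 members were below it. For 72 h minus 18 h these were Fbxl20 (0.47 ± 0.22) and Psmb6 (0.45 ± 0.21), both with a limma adjusted p of 0.94. For 192 h minus 18 h they were Fbxl17 (1.07 ± 0.35), Ube2h (0.60 ± 0.21) and Usp15 (0.57 ± 0.26), with limma adjusted p of 0.66, 0.66 and 0.70. For 192 h minus 72 h they were Ube2w (-0.57 ± 0.24) and Ube2cbp (0.50 ± 0.21), with a limma adjusted p of 0.99 for both. In 18 h replicate 4 and 192 h replicate 4 the members' ratios correlated at r = -0.73 over 34 oligos (all oligos r = -0.19), with Fbxl17 and Usp15 at both ends; this is a description across genes of 2 replicates, and the 16 pairs of replicates from different times ran from this value to 0.37. Of the other pairs with 192 h replicate 4, 18 h replicate 5 gave -0.44, 72 h replicate 4 -0.42, 18 h replicate 6 -0.24 and 72 h replicate 3 0.087.

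Spot brightness differed in median between the classes, with wide overlap of single oligos. Brightness was ranked among the oligos with a value on an array. It depends on the oligo as well as on the transcript, so it is no level of one gene against another. The median percentile was 89.8 for the 20S core and 84.8 for the 19S particle (medians over the 14 arrays), against 72.6 for E2 enzymes, 62.6 for deubiquitinases and 47.6 for F-box proteins. Members without a value on an array do not enter its median. Over the mean percentiles of single oligos the class medians were lower, at 81.1, 76.9, 57.7, 48.7 and 42.9 in the same order. The mean percentile of single oligos was highest for Psma5 in the core, followed by Psmb6 at 84.0, and for Psmc5 in the 19S particle (90.8), and at the dim end 19.5 for Psma8, 23.0 for Psma6 and 11.3 for Fbxo42. The activators Psme3 and Psme4 were at 43.8 and 48.4. Across the members, mean brightness on the 2 printings correlated at a Spearman's rho of 0.53 over 72 oligos, and over 5762 oligos of the array at 0.61. A value in all 7 replicates was held by 3 of 9 core oligos, 1 of 11 of the 19S particle, 0 of 16 E2, 2 of 21 deubiquitinase and 1 of 31 F-box oligos, beside 5.84% of all oligos.

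**Figure D5:**
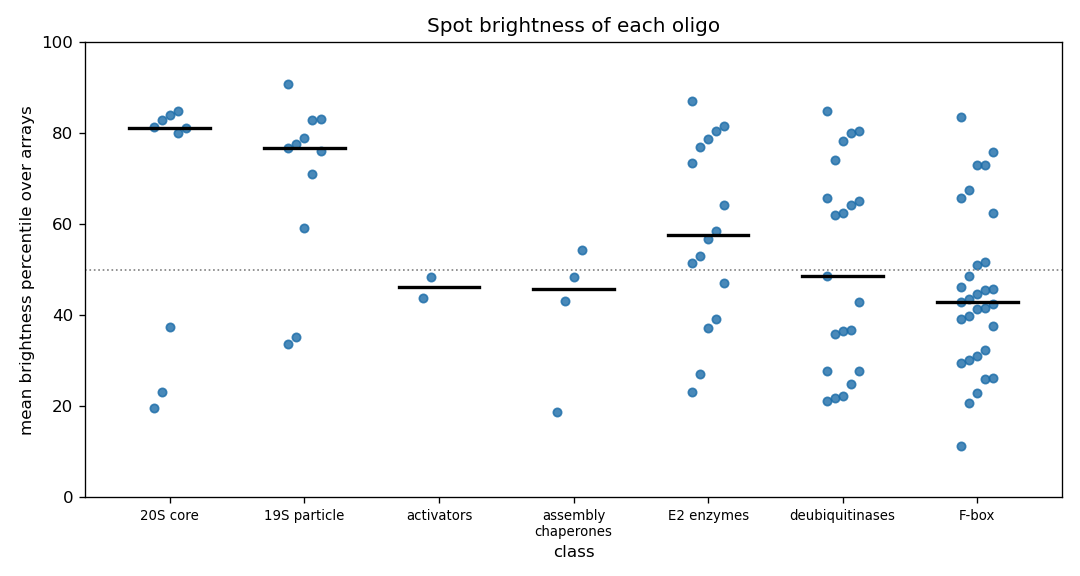
Mean brightness percentile over the arrays (vertical axis) of each oligo (points) by class (horizontal axis), with class medians as bars. The dotted line at 50 is the middle of the oligos with a value on an array. Core oligos have a median of 81.1 and F-box oligos one of 42.9, with wide overlap.

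The rest of the pathway showed no call either. Of the genes listed for SCF and other cullin ligases and their regulators, 18 of 24 were on the array, with Skp1 but without Cul1 and Rbx1. Of their oligos tested at 18, 72 and 192 h, 0 of 11, 0 of 12 and 0 of 10 had even an unadjusted p under 0.05. Their medians were -0.020, -0.0043 and -0.080. In 192 h replicate 4, 12 of 14 oligos of this group lay below 0 (all oligos 51.1%) with a median of -0.13, as the proteasome oligos did. In replicate 3 it was 6 of 11 (all oligos 43.2%). Among them Nedd8, the modifier that activates cullins, read 0.069 and -0.35 at 192 h, and Ddb1, an adaptor of the CUL4 ligases, -0.070 and -0.20.

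Other ligases outside the SCF type (20 of 39 listed genes on the array) lay above 0 in 10 of 13, 11 of 16 and 5 of 8 cases at 18, 72 and 192 h. Of all oligos 47.5%, 45.6% and 55.3% did so. The medians of these ligases were 0.066, 0.087 and 0.068, and none was below an unadjusted p of 0.05. Of the 5 genes on the array for delivery to the proteasome, Sqstm1, an autophagy receptor, read 0.14 and 0.0053 at 192 h, and Vcp, the segregase ATPase, 0.17 and -0.087. Of the delivery genes 1 of 4 lay above 0 at 18 h (median -0.098), 4 of 5 at 72 h (median 0.078) and 5 of 5 at 192 h (median 0.073), beside 47.5%, 45.6% and 55.3% of all oligos, and none was below an unadjusted p of 0.05. Nfe2l1, whose product drives proteasome genes when the proteasome is inhibited, read -0.37 and -0.069 at 18 h, 0.082 and 0.14 at 72 h and 0.24 in 192 h replicate 4. Uchl1, an abundant neuronal deubiquitinase, was at a brightness percentile of 96.2 and read -0.12 and -0.070 at 72 h. Of the other deubiquitinases listed, 5 of 15 genes were on the array and none was below that p.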

How the data were processed

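Two-colour oligonucleotide arrays compared prefrontal cortex RNA after tumour cells with RNA after PBS. Per the file headers, the deposited scanner tables give for each spot and scan an integrated intensity per channel, with the local background already subtracted. Per the file headers, the deposited saturation fraction states how many of a spot's pixels were unsaturated. The authors' value tables hold 1 log ratio per spot, and the sources used here give neither its base nor its normalization, nor the image analysis program. The 3 scans of each array hold 10080 spots each.

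From these files, spots with both intensities above 0 and at least 0.9 of their pixels unsaturated gave log2 ratios. Each scan was normalised by loess (span 0.3), scans were averaged, ratios of arrays whose Cy3 channel held the tumour RNA were multiplied by -1, and repeated spots of an oligo were averaged. Both arrays of a swap had to give a value, and their mean entered limma 3.58.1 in R 4.3.3 (1 coefficient per time, oligos with at least 2 replicate values at a time), two-sided, with Benjamini-Hochberg adjustment over all oligos tested. Brightness is the percentile of an oligo's mean log2 intensity among the oligos with a value on an array. The number of arrays limits the precision. Figures were drawn with matplotlib.

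Oligos were named through the platform annotation, and all 93 member genes were found in RefSeq (GRCm38.p6) with no symbol changed. The 9 poly A arrays of the 23 were not used here. The members, classes, pathway lists and tests were chosen with earlier results of these data known. Genes named by rule were those of smallest p at each time (6 higher and 6 lower) and between times (4 each), subunits with all 7 values, and the member with most values of each class. Further members were named after their values were seen, so that each class is accounted for. Alternatives changed the normalization, background correction, filters, fit and replicates. Since replicates 3 and 4 exist at both 72 h and 192 h, the replicate number was also fitted as a block. The fit was tested on simulated data with independent noise, where 100 oligos had a log2 change of 1 and 100 more a change of 2. Of a change of 1 it recovered 77 at 18 h, 67 at 72 h and 83 at 192 h. Of a change of 2 it recovered 94, 93 and 99, and it called 10, 6 and 8 unchanged oligos. So many changed oligos ease the adjustment. The median size of a member's ratio was 0.097, 0.11 and 0.088 at these times, and recovery of changes that small was not tested.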

Additional observations from a re-analysis of the deposited data

Results flagged for a closer look

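For 5 of the named members every replicate lay on one side of 0 at one time and on the other side at another. Fbxo9 was 0.38 higher at 72 h than at 18 h, and Psmd7 was 0.29 higher at 192 h than at 18 h. From 72 h to 192 h the log2 ratio of Ube2cbp differed by 0.50, that of Usp11 by 0.33 and that of Ube2w by -0.57. None of these differences passed the limma test of the difference between times (adjusted p = 0.94 for Fbxo9, 0.78 for Psmd7 and 0.99 for the other three). Members outside the naming rule with the same pattern were Ube2n between 18 h and 72 h and Psma1, Fbxo22 and Fbxw5 between 18 h and 192 h. That makes 2 of 31, 4 of 29 and 3 of 38 members for 18 and 72 h, 18 and 192 h, and 72 and 192 h. Over all oligos the share was 9.27%, 11.2% and 12.3%.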

How the results depend on the processing

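No member was called under any alternative run. Calls over all oligos left 0 in these cases: 8 at 18 h and 1 at 192 h with median centring, 3 at 192 h with single arrays fitted beside a dye term, and, over the fits that leave out 1 replicate, 0 to 1 at 72 h, 0 to 19 at 192 h, 0 to 1 for 72 h minus 18 h, 0 to 4 for 192 h minus 18 h and 0 to 1 for 192 h minus 72 h. In these fits a time left with 1 replicate was assumed to vary like the others. With the replicate block the count for 192 h minus 72 h was 0 of 1932 (70 at an unadjusted p under 0.05), and the number paired nothing measurable (r of the deviations of same-numbered replicates 0.00091). The 20 of 22 proteasome oligos below 0 in 192 h replicate 4 were 19 to 21 of 22 under the alternatives that kept these oligos, 22 of 26 with 1 array of a swap enough, 15 of 16 with brighter spots only, 4 of 4 with a value in every replicate, and, in 2 comparisons chosen after seeing the data, 14 and 18 of 22 on single arrays and 15 of 16 among oligos shared with replicate 3.

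The median of the members at 18 h moved to -0.18 with median centring and to 0.0042 with single arrays fitted, and ran from -0.062 to 0.064 without 1 replicate. At 72 h it moved to 0.060 over the 7 oligos with a value in every replicate, and ran from -0.041 to 0.057 without 1 replicate. The proteasome median at 18 h moved to 0.00375 with the authors' log ratios and ran from -0.0062 to 0.073 without 1 replicate. At 72 h it moved to -0.024 with 1 array of a swap enough and to -0.0052 with single arrays fitted. The proteasome median at 192 h was 0.097 in replicate 3 alone and -0.17 in replicate 4 alone, so its sign depended on the replicate.

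With median centring the size of single members' ratios moved by over 1.5 times in 14 of 19 values at 18 h, 6 of 18 at 72 h and 9 of 19 at 192 h; examples are Ube2e1 at 18 h (0.0027) and Ube2w at 192 h (-0.051). Signs of single members turned in 28 of 1031 values, but many of these values could not turn. Leaving out a replicate of another time, for example, keeps a ratio as it was. The share is therefore no measure of how stable the signs are. With median centring the signs that turned were those of Psma5 (-0.18 at 18 h, -0.11 at 192 h), Psme4 (0.029 at 18 h) and Psmg2 (-0.0013 at 192 h). Loess within blocks turned Psma5 at 192 h (-0.098), normexp turned Psmg2 at 18 h (-0.046), brighter spots turned Psmd7 at 18 h (0.064), and 1 array of a swap turned Psmg2 at 18 h (-0.019). The authors' log ratios turned Psmb6 at 18 h (0.020), Psma5 at 192 h (-0.054), Psmg2 at 18 h (-0.052) and 192 h (-0.022), and Fbxo9 at 192 h (0.0026). Leaving out 1 replicate gave, at 18 h, -0.13 to 0.027 for Psmb6, -0.021 to 0.14 for Psma5 and -0.20 to 0.035 for Psme4. At 72 h it gave -0.55 to 0.097 for Usp24, -0.19 to 0.11 for Psmc4, -0.020 to 0.27 for Psmb3 and -0.29 to 0.026 for Psmc3ip. At 192 h it gave -0.017 to 0.80 for Ube2k, -0.033 to 0.79 for Fbxl17, -0.000144 to 0.44 for Ube2h, -0.17 to 0.027 for Psmb6, -0.13 to 0.16 for Psma5, -0.20 to 0.097 for Psmb3, -0.15 to 0.21 for Psmg2 and -0.066 to 0.042 for Fbxo9. The cause of these changes was not tested.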
